A study of Mus musculus with 12 samples.

Results

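The genes described here are 10 members of the TGF-beta and activin branch of growth factor signalling: the ligand genes Tgfb1, Tgfb2, Tgfb3, Inhba and Mstn, the latency gene Ltbp1, the antagonist gene Fst, and the receptor genes Tgfbr1, Tgfbr2 and Acvr2b. They were taken by gene name from a table of read counts for 21232 gene symbols, and each of the 10 names had 1 row. Of these, 9 passed the filter on low counts that left 12736 genes for testing, and Mstn did not.

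RNA was sequenced from C2C12, an established line of mouse myoblasts whose cells leave the cell cycle and fuse into myotubes when serum is lowered. There were 4 groups of 3 libraries. TNF cells were kept in differentiation medium for 48 h with TNF alpha at 10 ng/ml, an inflammatory cytokine. Fbxl2 siRNA cells were at 48 h of differentiation after silencing of Fbxl2, which encodes the substrate-binding subunit of a ubiquitin ligase. Control cells were at 48 h of differentiation without TNF, and proliferating myoblasts were in growth medium with fetal bovine serum at 0 h. Differentiation medium held horse serum in place of fetal bovine serum, so the change of medium, the time and the stage moved together between control and proliferation. The labels do not say whether control, TNF or proliferating cells received a non-targeting siRNA, and they name no separate cultures behind the replicate letters A, B and C. The p-values therefore set the difference between groups against the spread between libraries of a group, and this spread may be technical.

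TGF-beta ligands are secreted in a latent complex with their own propeptide and a latent TGF-beta binding protein such as LTBP1, and must be released before they bind the receptors TGFBR2 and TGFBR1, which phosphorylate SMAD2 and SMAD3. Activin A, a dimer of the inhibin beta A chain encoded by Inhba, and myostatin signal through the same SMADs after binding type II activin receptors such as ACVR2B, and follistatin, encoded by Fst, binds and neutralises them. In skeletal muscle, TGF-beta ligands, activins and myostatin are known as inhibitors of myoblast differentiation or muscle growth, and follistatin as a promoter of both.

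Promoter sequences are shown because the series title concerns binding of SP1, a factor that recognises GC boxes, and because SMAD3 and SMAD4 bind Smad boxes. In RefSeq (build GRCm38.p6), 8 of the 10 genes had a promoter window of 300 bases, from 250 before to 50 after a transcription start, with 10 windows in all because Tgfbr1 and Ltbp1 had more than 1 start. Fst and Tgfb3 were not matched. The GC box GGGCGG, searched on both strands, lay in 3 of the 10 windows, those of Tgfb1, Acvr2b and the upstream start of Tgfbr1, against 35.7% of 32851 windows of the same length over all genes. The Smad box CAGAC, on both strands, lay in 7 of 10 against 49.6%, the E-box CANNTG in 5 of 10 against 72.3%, and the NF-kB consensus in the Tgfb1 window, 1 of 10, against 8.46%. The 250 bases before the start of a ligand and a receptor with GC boxes and of a ligand and a receptor with Smad boxes follow, 5′ to 3′ on the strand of the gene, with GC boxes and Smad boxes of either strand in capitals. They lie at chr7:25686752-25687001 (plus strand, Tgfb1), chr1:186705990-186706239 (minus strand, Tgfb2), chr4:47352972-47353221 (plus strand, Tgfbr1) and chr9:116175364-116175613 (minus strand, Tgfbr2).
Tgfb1: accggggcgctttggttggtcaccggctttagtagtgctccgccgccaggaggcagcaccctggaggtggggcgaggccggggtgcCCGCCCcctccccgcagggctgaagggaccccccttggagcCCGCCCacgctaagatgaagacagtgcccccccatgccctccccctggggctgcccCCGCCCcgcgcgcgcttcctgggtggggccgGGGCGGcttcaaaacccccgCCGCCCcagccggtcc
Tgfb2: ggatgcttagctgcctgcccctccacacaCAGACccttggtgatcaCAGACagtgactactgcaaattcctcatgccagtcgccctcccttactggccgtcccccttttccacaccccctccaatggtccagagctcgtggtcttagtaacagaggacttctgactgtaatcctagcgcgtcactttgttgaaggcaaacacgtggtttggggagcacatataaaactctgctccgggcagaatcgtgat
Tgfbr1: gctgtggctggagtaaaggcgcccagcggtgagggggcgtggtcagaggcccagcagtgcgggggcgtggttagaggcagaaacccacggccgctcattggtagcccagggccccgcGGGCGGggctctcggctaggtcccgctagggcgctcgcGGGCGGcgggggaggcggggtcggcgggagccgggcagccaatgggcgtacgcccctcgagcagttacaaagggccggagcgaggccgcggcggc
Tgfbr2: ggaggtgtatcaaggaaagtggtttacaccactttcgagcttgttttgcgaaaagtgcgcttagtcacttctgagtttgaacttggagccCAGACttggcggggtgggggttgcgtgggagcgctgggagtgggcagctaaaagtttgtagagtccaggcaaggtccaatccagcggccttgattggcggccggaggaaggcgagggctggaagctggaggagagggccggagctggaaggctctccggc
The printed stretch of Tgfb1 held 5 GC boxes and no Smad box, and that of Tgfbr1 held 2 GC boxes and no Smad box. Tgfb2 held 2 Smad boxes and Tgfbr2 held 1, with no GC box in either stretch. No printed GC box overlapped a printed Smad box. These matches describe letters in a window and do not show that a factor was bound.

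Library totals ran from 26416978 to 32917763 counts, and 3 counts, the limit that a count of 0 allows, corresponded to 0.0911 to 0.114 CPM, the count normalised to library size, in these libraries. Fbxl2 averaged 22.2 CPM in the Fbxl2 siRNA libraries and 32.9 CPM in control. Silenced cells thus held 67.5% of the control level (edgeR adjusted p = 1.67e-07, no overlap of the groups). Fbxl2 averaged 25.9 CPM in proliferation and 28.9 CPM with TNF, lower than in control (edgeR adjusted p = 0.0137 for TNF over control). That adjusted p passed 0.05 without control replicate C (0.0626), TNF replicate A (0.0629) or all libraries of letter C (0.0892). Exons of Fbxl2 share 11.2% of their bases with Ubp1 on the opposite strand, and use of strand in the counting is not given in the sources used here. Muscle markers (Myod1, Myf5, Myog, Des, Cdh15 and Myh3) were all present, and their summed level was 1219.8 to 1253 CPM with TNF, 1939 to 2194 CPM after Fbxl2 siRNA, 2691 to 2934 CPM in control and 1422 to 1569.7 CPM in proliferation. Summed levels of macrophage, endothelial and adipocyte markers were at most 2.95, 2.62 and 0.313 CPM in any library. Fibroblast markers summed to 460.0 to 489 CPM with TNF, 522 to 622 CPM after Fbxl2 siRNA, 829 to 865 CPM in control and 235 to 283 CPM in proliferation. Smooth muscle markers, which include Acta2, summed to 3469 to 3566 CPM with TNF, 1733 to 1861 CPM after Fbxl2 siRNA, 3024 to 3173 CPM in control and 646 to 659 CPM in proliferation, and osteoblast markers to between 35.7 and 54.4 CPM in any library. The members of these lists did not move as one. Of the 6 muscle markers, 2 were higher and 4 lower with TNF than in proliferation at edgeR adjusted p under 0.05. Over all genes tested these shares were 36.3% and 36.5%. Myog had 79.9 CPM with TNF and 22.5 CPM in proliferation, while Des had 727 and 1095 CPM. Myf5 had 61.5 CPM after Fbxl2 siRNA against 44.2 CPM in control, while 4 muscle markers were lower there (29.8% of all genes). Among fibroblast markers, Pdgfra had 32.4 CPM with TNF, 16.9 CPM after Fbxl2 siRNA, 15.8 CPM in control and 14.6 CPM in proliferation, while Pdgfrb had 326 CPM with TNF, 164 CPM after Fbxl2 siRNA, 340.1 CPM in control and 218 CPM in proliferation. Pdgfra was thus higher with TNF than in control (edgeR adjusted p = 9.25e-11), where the summed fibroblast level was lower. Smtn and Cnn1 (smooth muscle) had 2151 to 3195 and 47 to 420 counts in a library, and Runx2 (osteoblast) had 1044 to 1648. Thy1 (fibroblast) had at most 1 count in a library and Myh11 (smooth muscle) at most 5, while Adgre1 (macrophage) and Ibsp (osteoblast) were at 0 in all 12 libraries. The part of these marker levels in the results below was not tested. In bulk RNA, fewer cells expressing a gene and less RNA of it per cell cannot be told apart.

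Most of the genes stood higher in control than in proliferating myoblasts, were lower after Fbxl2 siRNA than in control, and were divided under TNF. A gene was called where edgeR's quasi-likelihood test, adjusted by the Benjamini-Hochberg method over 12736 genes, gave an adjusted p under 0.05. In control over proliferation, 7 of the 9 tested members were called higher and 1 lower, where 38.4% of all genes tested were called higher and 38.9% lower. In Fbxl2 siRNA over control, none was called higher and 8 were called lower, where 34.1% of all genes were higher and 29.8% lower. In TNF over control, 2 were called higher and 4 lower, where 31% of all genes were higher and 23.6% lower. With TMM scaling, used throughout, 6960 of the 12736 genes were called in TNF over control, and 56.8% of these calls were higher. With upper-quartile scaling 6919 were called, and 46.5% of these calls were higher. Under that scaling 2 members were called higher and 6 lower. The median log2 fold change of the 9 members was 0.66 in control over proliferation, -0.65 in Fbxl2 siRNA over control and -0.08 in TNF over control, against medians over all genes tested between -0.00084 and 0.03.

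The comparisons of TNF and of Fbxl2 siRNA share the control libraries, so the difference between them was tested directly as TNF over Fbxl2 siRNA. There, 8 of 9 members were called higher and none lower, and their median log2 fold change was 0.75, where 29.9% of all genes were called higher and 30.6% lower. With TMM scaling 7705 of all genes tested were called in TNF over Fbxl2 siRNA, and 49.5% of these calls were higher. With upper-quartile scaling 7828 were called, and 39.7% of these calls were higher. Under that scaling 8 members were called higher and none lower. Set against proliferation, 7 members were higher and 1 lower with TNF, where 36.3% of genes were higher and 36.5% lower. After Fbxl2 siRNA, 5 were higher and 1 lower than in proliferation, where 30.9% of genes were higher and 31.1% lower. Acvr2b, the receptor with the fewest counts, was not called in any of the 6 comparisons.

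**Figure D1:**
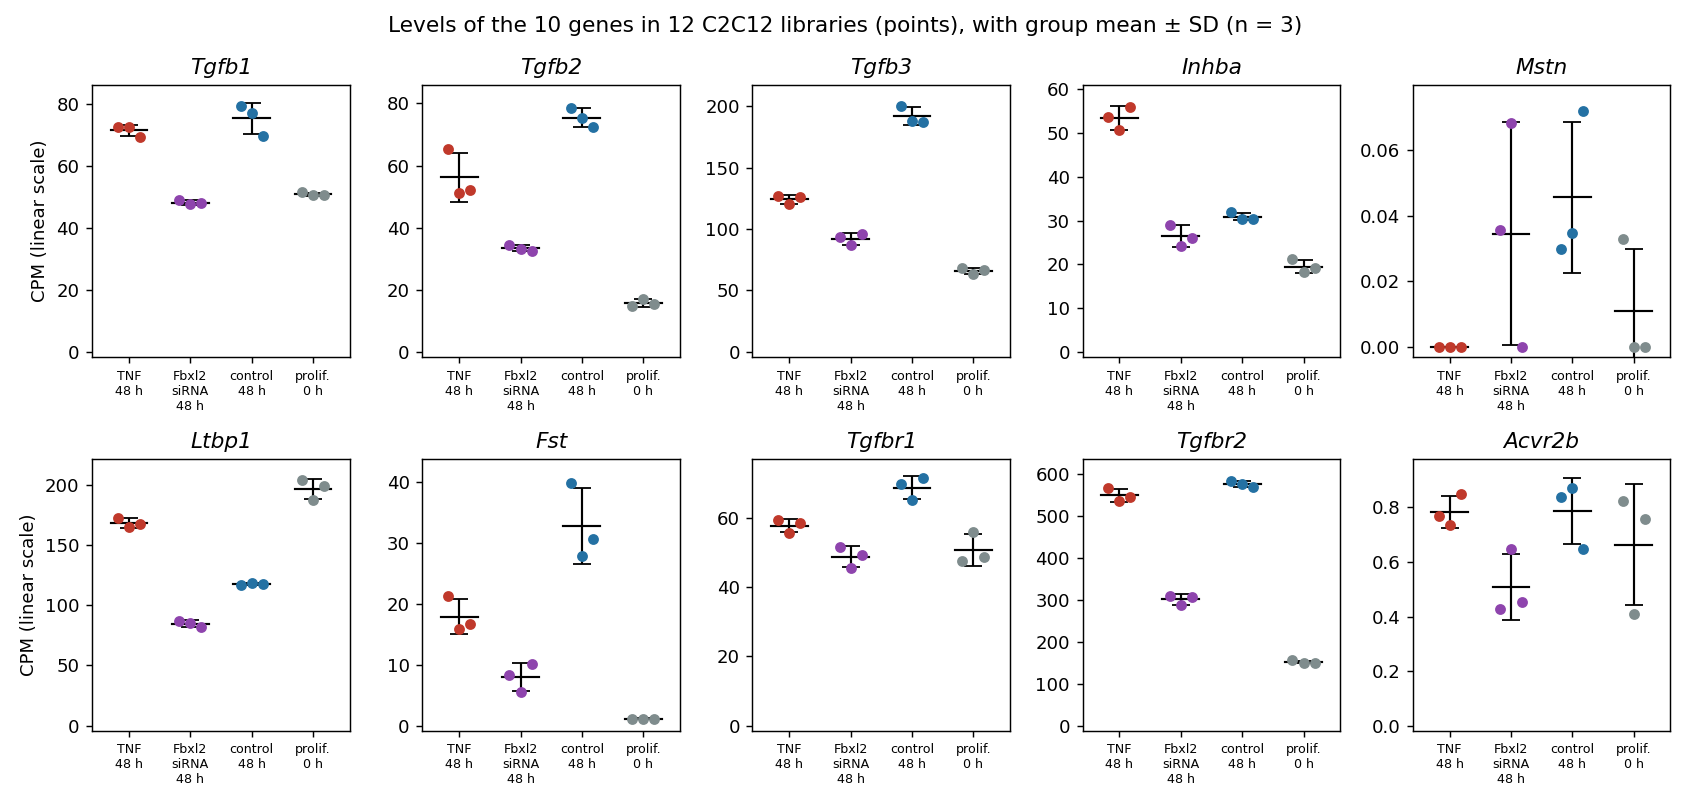
Levels in CPM (linear axes that differ between panels) of the 10 genes in each of 12 libraries, as points, with group mean and SD (bars, n = 3), for TNF, Fbxl2 siRNA, control and proliferation (prolif.). Fst lies between 27.9 and 39.8 CPM in control and between 1.00 and 1.15 CPM in proliferation, Inhba is highest with TNF, Ltbp1 is highest in proliferation, and all Mstn values lie below the limit that a count of 0 allows.

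Among the TGF-beta ligand genes, Tgfb3 had the most RNA per length in every group, and Fbxl2 siRNA cells had less of all 3 than control cells. Tgfb3 (ENSMUSG00000021253, chromosome 12, 86056745 to 86079041, minus strand, GRCm38) encodes a ligand made by many mesenchymal cells. It had 127, 120.1 and 126 CPM with TNF, 93.3, 86.7 and 95.9 CPM after Fbxl2 siRNA, 200.1, 188 and 187 CPM in control, and 67.9, 63.1 and 67.0 CPM in proliferation. The 4 groups did not overlap, and each neighbouring pair in the order proliferation, Fbxl2 siRNA, TNF, control was called. The log2 fold change was -0.63 (SE 0.05, edgeR adjusted p = 5.19e-10) for TNF over control and -1.06 (SE 0.05, adjusted p = 2.55e-13) for Fbxl2 siRNA over control. Control cells held 2.90-fold the proliferation level. Exons of Tgfb3 share 7.6% of their bases with Gm48008 and 4.82% with Gm37804, both on the opposite strand.

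Tgfb2 (chromosome 1, 186622792 to 186705989, minus strand), whose Smad boxes are printed above, showed the largest relative difference of the 3 between control and proliferation. It had 65.4, 51.1 and 52.1 CPM with TNF, 34.5, 33.2 and 32.5 CPM after Fbxl2 siRNA, 78.7, 75.4 and 72.4 CPM in control, and 14.8, 17.1 and 15.3 CPM in proliferation. The groups did not overlap and stood in the same order as those of Tgfb3. Control cells held 4.80-fold the proliferation level (log2 fold change 2.26, SE 0.08, edgeR adjusted p = 1.45e-14). TNF replicate A stood above the other TNF libraries, and the log2 fold change of TNF over control was -0.42 (SE 0.07, adjusted p = 7.75e-05). Fbxl2 siRNA cells held 44.2% of the control level (adjusted p = 2.15e-10). An antisense gene, Gm29491, shares 2.14% of the exon bases.

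Tgfb1 (chromosome 7, 25687002 to 25705077, plus strand), the ligand best known from wound repair and fibrosis and the gene with most GC boxes in the promoters printed above, had its groups in another order. It had 72.4, 72.6 and 69.3 CPM with TNF, 49.0, 47.5 and 48.0 CPM after Fbxl2 siRNA, 79.3, 77.0 and 69.8 CPM in control, and 51.5, 50.5 and 50.7 CPM in proliferation. The libraries formed an upper pair of groups, TNF and control, which overlapped, and a lower pair, Fbxl2 siRNA and proliferation. The log2 fold change of TNF over control was -0.08 (95% confidence interval -0.18 to 0.02, edgeR adjusted p = 0.183), and the gene was called lower with upper-quartile scaling (adjusted p = 0.0275), in a fit of the 2 groups alone (0.0494) and without control replicate C (0.0318). Fbxl2 siRNA cells held 63.9% of the control level (log2 fold change -0.65, SE 0.05, adjusted p = 6.11e-10), and their difference from proliferation was not called (log2 fold change -0.08, interval -0.19 to 0.03, adjusted p = 0.185). Control cells held 1.48-fold the proliferation level (adjusted p = 1.54e-09).

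Levels per length (RPKM, CPM per kilobase of merged exons) allow the 3 ligand genes to be summed. Their sum was 60.6 RPKM with TNF, 42.5 RPKM after Fbxl2 siRNA, 84.7 RPKM in control and 32.3 RPKM in proliferation, and no pair of groups overlapped. Tgfb3 made up 60.6% of that sum with TNF, 63.9% after Fbxl2 siRNA, 67.0% in control and 60.3% in proliferation, and the TNF and proliferation groups overlapped for this share. Tgfb2 made up 16.0% with TNF, 13.6% after Fbxl2 siRNA, 15.4% in control and 8.43% in proliferation, and the TNF and control groups overlapped for this share. Tgfb1 made up 23.4% with TNF, 22.5% after Fbxl2 siRNA, 17.6% in control and 31.2% in proliferation, so that its share was lowest in control and highest in proliferation, and the TNF and Fbxl2 siRNA groups overlapped.

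Inhba and Fst, the activin A chain and its antagonist, moved in opposite directions under TNF. Inhba (chromosome 13, 16011851 to 16031621, plus strand) had 53.7, 50.7 and 56.0 CPM with TNF, 29.1, 24.3 and 26.1 CPM after Fbxl2 siRNA, 31.8, 30.3 and 30.5 CPM in control, and 21.1, 18.3 and 19.1 CPM in proliferation. All 3 TNF libraries stood above every other library. TNF cells held 1.73-fold the control level (log2 fold change 0.79, SE 0.06, edgeR adjusted p = 1.41e-09) and 2.74-fold the proliferation level. After Fbxl2 siRNA, Inhba was 85.6% of control (log2 fold change -0.22, SE 0.07, adjusted p = 0.00696), the smallest of the 8 falls in that comparison. The call was lost without Fbxl2 siRNA replicate B (adjusted p = 0.0574) and without all libraries of letter C (0.0601).

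Fst (chromosome 13, 114452290 to 114458951, minus strand) had the largest fold change of the 10 genes. It had 21.2, 15.8 and 16.7 CPM with TNF, 8.38, 5.45 and 10.1 CPM after Fbxl2 siRNA, 39.8, 27.9 and 30.5 CPM in control, and 1.15, 1.00 and 1.12 CPM in proliferation. The 4 groups did not overlap, and within the control group replicate A was the highest. Control cells held 29.9-fold the proliferation level (log2 fold change 4.90, SE 0.29, edgeR adjusted p = 9.5e-08). TNF cells held 54.7% of the control level (log2 fold change -0.87, SE 0.19, adjusted p = 0.003), and Fbxl2 siRNA cells held 24.2% (log2 fold change -2.05, SE 0.21, adjusted p = 1.35e-05). The level was 2.26-fold higher with TNF than after Fbxl2 siRNA (adjusted p = 0.00114). Both groups stayed above proliferation, 16.3-fold with TNF and 7.22-fold after Fbxl2 siRNA. The antisense gene Gm47040 shares 2.51% of the exon bases of Fst.

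Within each library, the ratio of Inhba to Fst per length was 1.82, 2.31 and 2.42 with TNF, 2.49, 3.20 and 1.85 after Fbxl2 siRNA, 0.575, 0.781 and 0.716 in control, and 13.2, 13.1 and 12.3 in proliferation. Control was the only group in which Fst exceeded Inhba per length in all 3 libraries, and proliferation had the highest ratios. The means were 3.16-fold higher with TNF and 3.64-fold higher after Fbxl2 siRNA than in control, with no overlap. The TNF and Fbxl2 siRNA groups overlapped (exact two-sided permutation test, p = 0.4, adjusted p = 0.42). The underlying levels differed all the same, since Inhba was 2.02-fold and Fst 2.26-fold higher with TNF than after Fbxl2 siRNA. The ratios and shares were chosen after the values of the single genes were seen. With 3 libraries against 3, the smallest p an exact two-sided permutation test can give is 0.1, and over the 42 comparisons of 7 ratios, sums and shares the smallest adjusted p was 0.111.

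Mstn (chromosome 1, 53061640 to 53068079, plus strand), which encodes myostatin, was at the limit of detection throughout. It had 0, 0 and 0 counts with TNF, 1, 2 and 0 counts after Fbxl2 siRNA, 1, 1 and 2 counts in control, and 1, 0 and 0 counts in proliferation. Every library was therefore under 3 counts, and no difference between groups was detectable at this depth. Its promoter window held 2 Smad boxes and 4 E-boxes.

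Ltbp1 (chromosome 17, 75005568 to 75392512, plus strand), which tethers latent TGF-beta to the extracellular matrix, was the only tested member called lower in control than in proliferation. It had 172, 164 and 167 CPM with TNF, 87.2, 85.0 and 81.9 CPM after Fbxl2 siRNA, 116, 118 and 118 CPM in control, and 204, 188 and 199 CPM in proliferation. The 4 groups did not overlap, and control lay between Fbxl2 siRNA and TNF. The log2 fold change was -0.75 for control over proliferation (SE 0.04, edgeR adjusted p = 2.78e-12), 0.52 for TNF over control (SE 0.04, adjusted p = 2.81e-09) and -0.47 for Fbxl2 siRNA over control (SE 0.05, adjusted p = 1.54e-08). It was 1.98-fold higher with TNF than after Fbxl2 siRNA. Fbxl2 siRNA cells held 43.1% of the proliferation level. Per length, the ratio of Ltbp1 to the sum of Tgfb1, Tgfb2 and Tgfb3 was 0.260 with TNF, 0.187 after Fbxl2 siRNA, 0.130 in control and 0.569 in proliferation, with no overlap between any pair of groups.

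**Figure D2:**
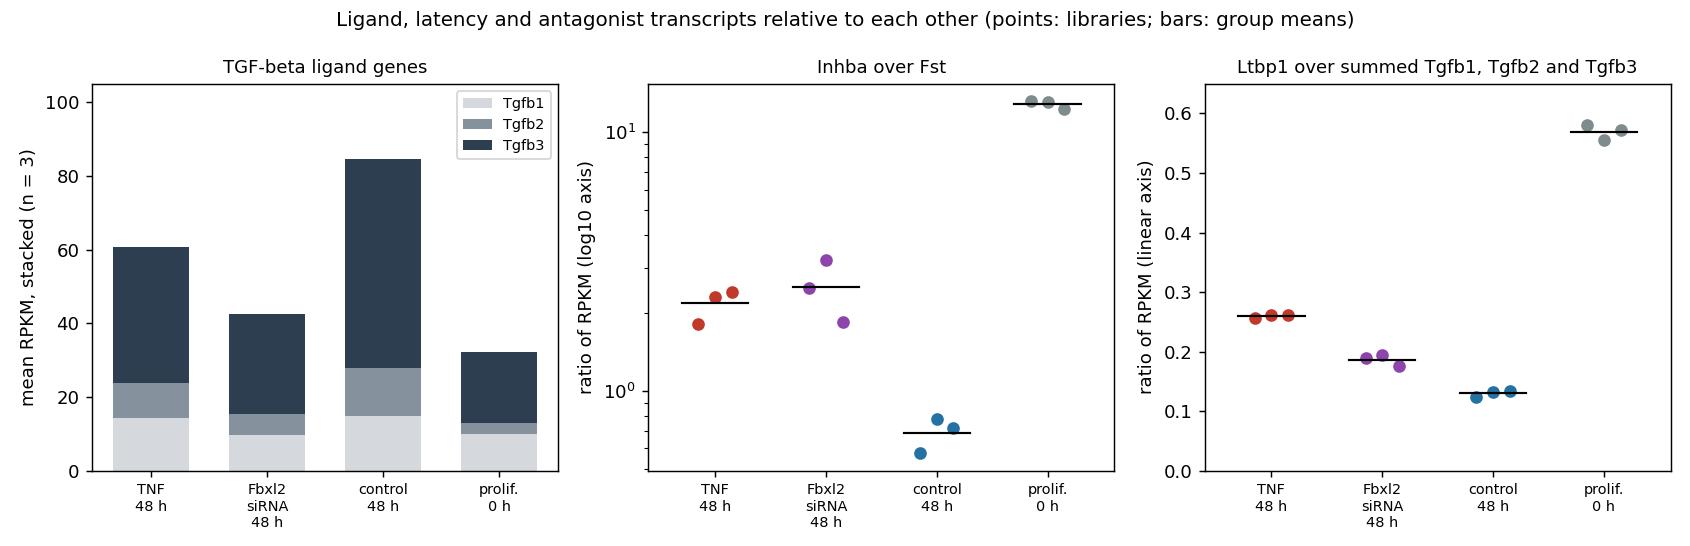
Left, mean RPKM of Tgfb1, Tgfb2 and Tgfb3 stacked for each group (linear axis from 0, n = 3). Middle, the ratio of Inhba to Fst in each library (points, log10 axis), and right, the ratio of Ltbp1 to the summed ligand genes (points, linear axis), with group means as lines. The summed ligand level is highest in control at 84.7 RPKM, where both ratios are lowest, at 0.691 and 0.130.

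The receptor genes were unequal in level and in change. Tgfbr2 (chromosome 9, 116084293 to 116175360, minus strand), the receptor that binds TGF-beta ligands first, had the most RNA per length of the 10 genes in the 3 groups at 48 h, at 67.1 RPKM with TNF, 36.9 RPKM after Fbxl2 siRNA and 70.5 RPKM in control. In CPM it had 567, 536 and 546 with TNF, 310.5, 287 and 308 after Fbxl2 siRNA, 585, 578 and 570.2 in control, and 156, 150.0 and 149.6 in proliferation. The TNF libraries lay just below the control libraries, and the Fbxl2 siRNA libraries lay between those of control and proliferation. Control cells held 3.81-fold the proliferation level (log2 fold change 1.93, SE 0.05, edgeR adjusted p = 3.7e-18). Fbxl2 siRNA cells held 52.2% of the control level (log2 fold change -0.94, SE 0.04, adjusted p = 5.05e-13). For TNF over control the log2 fold change was -0.07 (95% confidence interval -0.16 to 0.02, adjusted p = 0.182), and the gene was called lower with upper-quartile scaling (0.0207) and in a fit of the 2 groups alone (0.0156).

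Tgfbr1 (chromosome 4, 47353222 to 47414931, plus strand), the signalling receptor that TGFBR2 activates, varied less. It had 59.3, 55.7 and 58.4 CPM with TNF, 51.5, 45.5 and 49.2 CPM after Fbxl2 siRNA, 69.7, 65.1 and 71.6 CPM in control, and 47.6, 56.0 and 48.6 CPM in proliferation. Control libraries were the highest, and the other 3 groups were close together, with proliferation replicate B inside the range of the TNF libraries. The TNF libraries still stood above those of Fbxl2 siRNA without overlap (log2 fold change 0.25, edgeR adjusted p = 0.00192). The log2 fold change was -0.25 for TNF over control (SE 0.06, edgeR adjusted p = 0.00151), -0.50 for Fbxl2 siRNA over control (SE 0.06, adjusted p = 6e-07) and 0.44 for control over proliferation (SE 0.06, adjusted p = 1.47e-06). The difference of TNF from proliferation, a log2 fold change of 0.19 (adjusted p = 0.00915), was no longer called without proliferation replicate A (0.0513) or C (0.0530), or without all libraries of letter A (0.116) or C (0.155). Fbxl2 siRNA over proliferation was not called (log2 fold change -0.06, interval -0.19 to 0.08, adjusted p = 0.456). The ratio of Tgfbr2 to Tgfbr1 per length averaged 7.59 with TNF, 4.94 after Fbxl2 siRNA, 6.72 in control and 2.40 in proliferation, with no overlap.

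Acvr2b (chromosome 9, 119402118 to 119434995, plus strand), a type II receptor for activins and myostatin, had 11 to 28 counts per library. It had 0.768, 0.735 and 0.850 CPM with TNF, 0.426, 0.647 and 0.454 CPM after Fbxl2 siRNA, 0.839, 0.871 and 0.647 CPM in control, and 0.822, 0.409 and 0.756 CPM in proliferation. The range was widest in proliferation, which overlapped every other group, and narrowest with TNF. The Fbxl2 siRNA libraries lay below those of control and TNF without overlap, although Fbxl2 siRNA replicate B and control replicate C both round to 0.647 CPM. For Fbxl2 siRNA over control the log2 fold change was -0.62 (95% confidence interval -1.22 to -0.02, edgeR adjusted p = 0.0659), and it was called without proliferation replicate B, without control replicate C or without Fbxl2 siRNA replicate B (adjusted p from 0.0391 to 0.0496). For TNF over Fbxl2 siRNA it was 0.61 (interval 0.0071 to 1.22, adjusted p = 0.0749), called without Fbxl2 siRNA replicate B (0.0436) and without all libraries of letter B (0.0430). For TNF over control the log2 fold change was -0.01 with an interval of -0.56 to 0.54, which leaves room for a change in either direction.

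**Figure D3:**
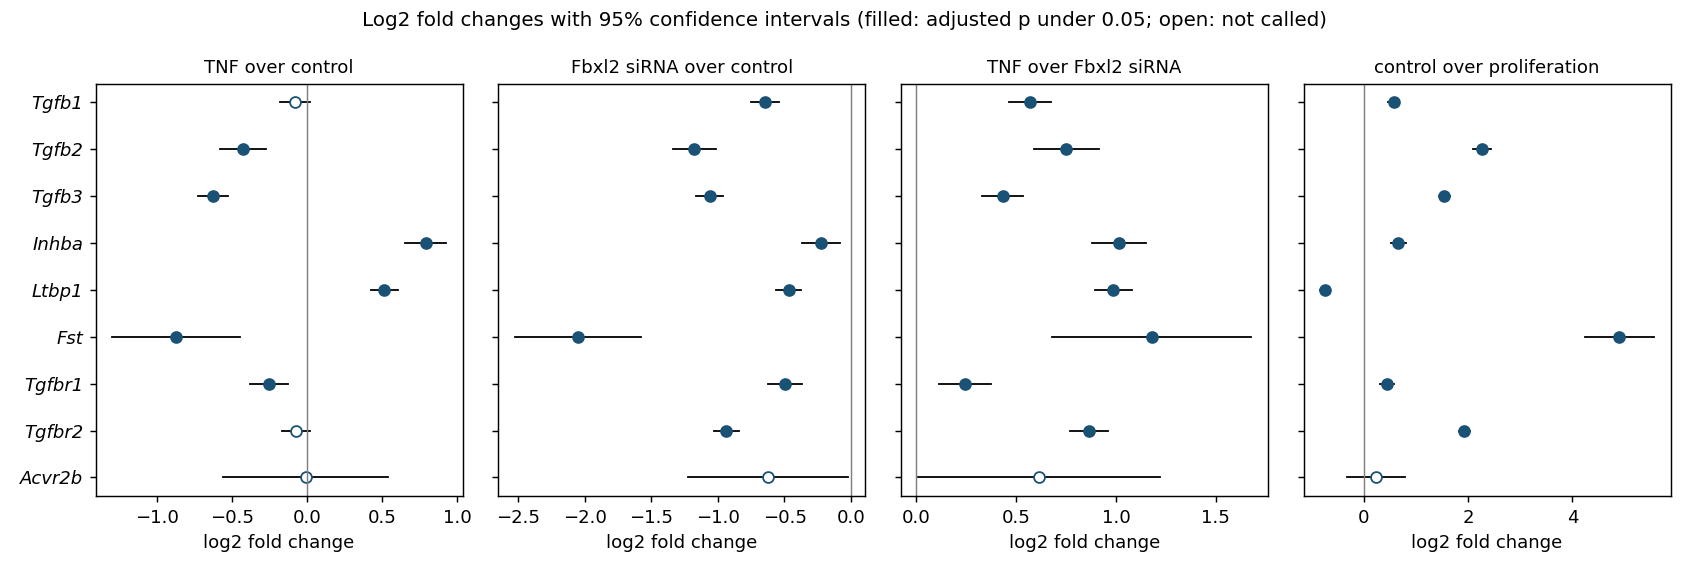
Log2 fold changes (points) with 95% confidence intervals (lines) of the 9 tested genes in 4 comparisons, each with its own linear axis, filled where called and open where not. In TNF over control the points lie on both sides of 0, from -0.87 for Fst to 0.79 for Inhba, while in Fbxl2 siRNA over control all lie below 0 and in TNF over Fbxl2 siRNA all lie above 0.

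The levels can be placed on a scale with proliferation at 0% and control at 100%. On the scale of mean CPM, TNF stood at 93.4% for Tgfbr2, 83.9% for Tgfb1, 67.7% for Tgfb2, 53.1% for Fst, 46.2% for Tgfb3 and 39.2% for Tgfbr1, and at 299% for Inhba. Fbxl2 siRNA stood at 61.2% for Inhba, 35.2% for Tgfbr2, 29.5% for Tgfb2, 21.8% for Fst and 20.6% for Tgfb3, and just below 0 for Tgfb1 and Tgfbr1 at -11.1% and -10.8%. Ltbp1, which was lower in control than in proliferation, stood at 36.2% with TNF and at 141% after Fbxl2 siRNA. Acvr2b and Mstn were too low to be placed.

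Over the 12 libraries, Fst, Tgfb2 and Tgfbr2 had the most similar profiles of log2 CPM among the members, with Pearson correlations of 0.985 for Fst and Tgfb2, 0.984 for Tgfb2 and Tgfbr2, and 0.980 for Fst and Tgfbr2. Ltbp1 correlated with Fst at -0.44. These correlations describe 4 groups of 3 libraries that share conditions, and carry no test. Among all genes tested, those most similar to Fst were Sema3d (0.9957), which encodes a semaphorin, Dag1 (0.9957), which encodes dystroglycan, and Cdon (0.9947), which encodes a cell surface protein of myoblasts. Sema3d averaged 118 CPM with TNF, 86.9 CPM after Fbxl2 siRNA, 158 CPM in control and 41.5 CPM in proliferation. For Inhba they were P2rx7 (0.9962), which encodes an ATP-gated ion channel, Egfr (0.9934), the epidermal growth factor receptor gene, and Ankfy1 (0.9917). Egfr averaged 149 CPM with TNF, 60.3 CPM after Fbxl2 siRNA, 79.5 CPM in control and 38.7 CPM in proliferation. For Tgfb2 they were the protocadherin gene Pcdhb22 (0.9946), Trabd2b (0.9945) and Rab2b (0.9922), and for Mstn none was sought because it did not pass the filter.

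Other genes of the pathway were counted from 5 lists of 78 names, of which 62 passed the filter. In Fbxl2 siRNA over control, 9 were called higher and 41 lower, and the median log2 fold change was -0.36. In TNF over control, 21 were higher and 20 lower, with a median of 0.06, and in control over proliferation 45 were higher and 8 lower, with a median of 0.58. In TNF over Fbxl2 siRNA 38 were higher and 10 lower. Compared with proliferation, 49 were higher and 6 lower with TNF, and 31 were higher and 14 lower after Fbxl2 siRNA. The shares of all genes called in each direction are those given above for the members.

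Among other ligands, 4 of 10 names passed the filter. Inhbb, which encodes the inhibin beta B chain of activin B, averaged 304 ± 4.90 CPM with TNF, 74.6 ± 1.72 CPM after Fbxl2 siRNA, 168 ± 0.986 CPM in control and 44.3 ± 1.46 CPM in proliferation (SD, n = 3 each). It rose with TNF (log2 fold change 0.85, edgeR adjusted p = 2.95e-13) and fell after Fbxl2 siRNA (-1.17, adjusted p = 1.01e-14), the same directions as Inhba. Gdf15, a stress-induced member of the family, went the other way after Fbxl2 siRNA, with 10.2 ± 1.04 CPM against 4.06 ± 0.650 CPM in control (log2 fold change 1.34, adjusted p = 2.25e-06). Gdf15 was highest in proliferation at 20.1 ± 4.34 CPM.

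Of the 7 other receptors and co-receptors tested, all were called higher in control than in proliferation (38.4% of all genes tested). With TNF, 1 was higher and 3 lower than in control (31% and 23.6% of all genes). After Fbxl2 siRNA, none was higher and 4 were lower than in control (34.1% and 29.8% of all genes). Acvr2a, which encodes the other type II activin receptor, had 32.0 ± 2.32 CPM with TNF, 44.8 ± 1.12 CPM after Fbxl2 siRNA, 47.1 ± 1.51 CPM in control and 36.2 ± 2.43 CPM in proliferation. It was lower with TNF than in control (log2 fold change -0.56, edgeR adjusted p = 7.88e-08), and Fbxl2 siRNA over control was not called (-0.07, adjusted p = 0.278). Bmpr2, a type II receptor for bone morphogenetic proteins, fell after Fbxl2 siRNA to 147 ± 9.89 CPM, against 212 ± 6.42 CPM in control (-0.53, adjusted p = 9.73e-07).

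Of 16 tested genes of latency, activation and extracellular antagonism, 13 were lower and 1 higher after Fbxl2 siRNA than in control. The median of the 16 was -0.70 on the log2 scale, and 29.8% of all genes were lower and 34.1% higher. With TNF, 4 were higher and 5 lower than in control (31% and 23.6% of all genes). Thbs1, whose product thrombospondin 1 activates latent TGF-beta, had 899 ± 64.0 CPM after Fbxl2 siRNA, 2700.2 ± 48.3 CPM in control and 879 ± 51.0 CPM in proliferation, and fell after Fbxl2 siRNA (log2 fold change -1.59, edgeR adjusted p = 7.23e-15). With TNF it stood at 2671 ± 93.0 CPM and was not called against control (-0.02, adjusted p = 0.829). Ltbp2, a matrix protein of the LTBP1 family, had 644 ± 13.6 CPM with TNF and 60.0 ± 4.02 CPM after Fbxl2 siRNA. It had 213 ± 9.43 CPM in control and 109 ± 14.3 CPM in proliferation. Lrrc32, whose product GARP holds latent TGF-beta at the cell surface, had 28.1 ± 1.03 CPM with TNF, 2.66 ± 0.0284 CPM after Fbxl2 siRNA and 7.41 ± 0.311 CPM in control. Both were thus higher with TNF than in control and lower after Fbxl2 siRNA, and they differed 10.7-fold and 10.6-fold between TNF and Fbxl2 siRNA. Dcn, which encodes decorin, a matrix proteoglycan that binds TGF-beta, had 119 ± 4.88 CPM with TNF, 394 ± 36.1 CPM after Fbxl2 siRNA and 488 ± 16.1 CPM in control. Dcn is also on the list of fibroblast markers given above.

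Of 18 Smad genes and intracellular regulators, 5 were higher and 6 lower with TNF than in control (31% and 23.6% of all genes). After Fbxl2 siRNA, 3 were higher and 10 lower than in control (34.1% and 29.8% of all genes). Smad3, which encodes the SMAD that TGF-beta and activin receptors phosphorylate, had 165 ± 4.23 CPM with TNF, 152 ± 11.6 CPM after Fbxl2 siRNA, 239.7 ± 5.18 CPM in control and 101 ± 8.99 CPM in proliferation. It was lower than in control in both comparisons (log2 fold change -0.54 with TNF, edgeR adjusted p = 1.13e-07, and -0.65 after Fbxl2 siRNA, adjusted p = 6.17e-09). Smad7, an inhibitory SMAD induced by the pathway, had 18.5 ± 0.460 CPM with TNF, 8.97 ± 0.280 CPM after Fbxl2 siRNA, 10.7 ± 0.326 CPM in control and 14.4 ± 0.317 CPM in proliferation. Smad6, the other inhibitory SMAD, fell after Fbxl2 siRNA to 1.71 ± 0.300 CPM, against 5.84 ± 0.213 CPM in control (-1.76, adjusted p = 3.17e-10). Pmepa1, an induced inhibitor of SMAD signalling, was among the 6 lower genes with TNF and among the 3 higher ones after Fbxl2 siRNA, with 198 ± 6.44 CPM with TNF, 327 ± 11.1 CPM after Fbxl2 siRNA and 257 ± 6.92 CPM in control.

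Of 17 tested genes that textbooks give as responding to TGF-beta, 10 rose and 5 fell with TNF relative to control. Over all genes tested, 31% rose and 23.6% fell. After Fbxl2 siRNA, 4 of the 17 rose and 11 fell relative to control (34.1% and 29.8% of all genes). In control cells, 14 stood higher and 2 lower than in proliferating myoblasts (38.4% and 38.9% of all genes). Postn, which encodes the matrix protein periostin, was 7.29-fold higher with TNF than in control (log2 fold change 2.87, edgeR adjusted p = 8.27e-16) and lower after Fbxl2 siRNA (-1.34, adjusted p = 3.96e-11). Tagln and Acta2, contractile genes of smooth muscle, fell after Fbxl2 siRNA by 1.27 and 0.82 on the log2 scale. Cilp, a cartilage matrix gene, was among the 5 that fell with TNF, at 10.3 ± 1.48 CPM against 152 ± 11.1 CPM in control (-3.87, adjusted p = 1.13e-12). It had 45.4 ± 6.28 CPM after Fbxl2 siRNA and 0.236 ± 0.0772 CPM in proliferation. Tgm2, the tissue transglutaminase gene, was also lower with TNF (-0.92, adjusted p = 1.69e-09). Tgfbi, a matrix gene named for its induction by TGF-beta, rose after Fbxl2 siRNA to 4.99 ± 0.925 CPM, against 1.49 ± 0.0247 CPM in control (1.74, adjusted p = 7.01e-09). Acta2 is also on the list of smooth muscle markers.

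**Figure D4:**
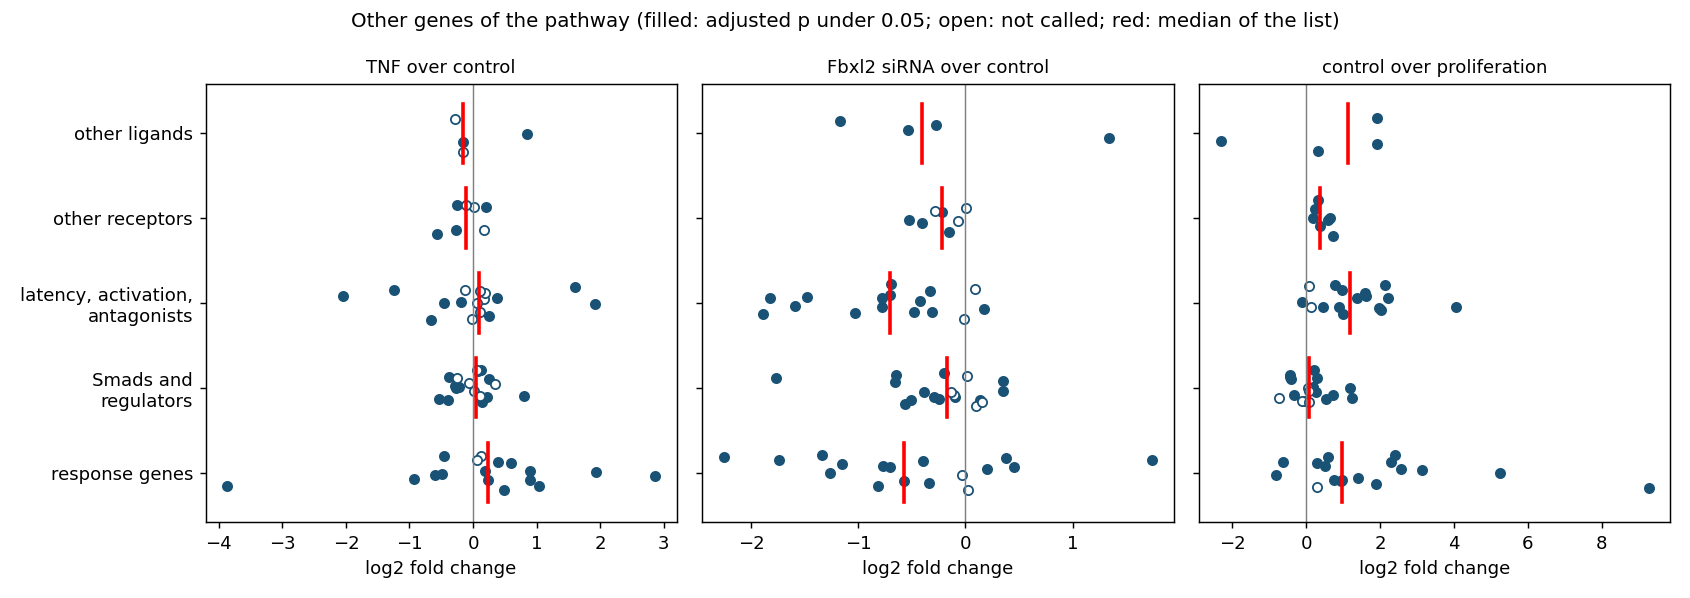
Log2 fold changes (linear axes that differ between panels) of the 62 other pathway genes tested, 1 point a gene, in 5 lists, filled where called and open where not, with the median of each list as a red line. After Fbxl2 siRNA the medians of all 5 lists lie below 0, down to -0.70 for latency, activation and antagonists, while with TNF they lie between -0.16 and 0.23.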

How the data were processed

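Read counts per gene symbol, as whole numbers for 12 C2C12 libraries in 4 groups of 3, were used as the authors deposited them. The mm10 build, CASAVA and DESeq2 are named, with no version, per the submitters' processing notes. Aligner, counting tool and use of strand are not given in the sources, so counts of overlapping, antisense or near-identical genes may be shared. The authors' tables of comparisons were not used.

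In R 4.3.3, edgeR 4.0.16 (filterByExpr, TMM scaling, robust quasi-likelihood fit of 4 group means to 12 libraries, 8 residual degrees of freedom) tested 6 contrasts, with Benjamini-Hochberg adjustment over 12736 genes. The script was tested on simulated data. CPM used totals multiplied by TMM factors, and RPKM used merged GENCODE M21 exon lengths. SE is the size of the log2 fold change over the root of the F statistic. Limits from 3 counts cover counting error only. Replicate counts of a group differed by 1.60 to 21.3 in chi-square per degree of freedom, where sampling alone gives about 1, so no library was a copy of another.

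The members and gene lists were chosen with earlier results of these data known. All members and Fbxl2 were reported. From each list, genes were named among the up to 2 higher and 2 lower calls with the smallest adjusted p in a comparison. For some of them, values in the other groups are given as well. A gene that this rule names among the textbook response genes is counted with its list and is not reported here by name. Genes most like a member were the 3 with the highest Pearson correlation of log2 CPM (prior count 2). Alternatives were RLE and upper-quartile scaling, DESeq2 1.42.0, other filters, fits of 2 groups, a replicate block, and leaving out libraries.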

Additional observations from a re-analysis of the deposited data

How the results depend on the processing

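Over 22 alternatives, the 12 counts of called members and pathway genes (264 values) stayed within 1.5 times. Of 1314 gene values over 60 gene and comparison pairs, 1274 kept direction and side of the threshold, 18 lost a call, 11 gained one and 11 changed sign. Sign changes concerned only Acvr2b and Tgfbr1, in comparisons where neither was called. Without all libraries of letter B, the log2 fold change of Acvr2b was -0.074 for control over proliferation and 0.11 for TNF over control, and that of Tgfbr1 for Fbxl2 siRNA over proliferation was 0.067. Without all libraries of letter A, Acvr2b for TNF over control was 0.062. With 1 library left out, Acvr2b ran from -0.0031 to 0.41 for control over proliferation, from -0.13 to 0.061 for TNF over control and from -0.010 to 0.40 for TNF over proliferation, and Tgfbr1 ran from -0.10 to 0.019 for Fbxl2 siRNA over proliferation. With 1 CPM required in 3 libraries, Acvr2b was not tested. The cause was not tested. Upper-quartile scaling moved the share of higher calls over all genes to 46.5% in TNF over control, against 56.8% with TMM, and to 39.7% in TNF over Fbxl2 siRNA, against 49.5%.

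Same-letter libraries showed no consistent pairing. Their deviations from group means correlated between -0.10 and 0.18, with 3 of 18 pairs above 0.1, and those of different letters between -0.16 and 0.13. The highest value, 0.18, was that of control replicate A with TNF replicate A. Of 12 libraries, 5 correlated best with their own letter. With the replicate block, 8 members were called in control over proliferation, 6 in TNF over control, 8 in Fbxl2 siRNA over control and 8 in TNF over Fbxl2 siRNA, the same numbers as without it. Of all 12736 genes tested, the block gave 9897, 7070, 8239 and 7833 calls in these comparisons. Of 2112 values of named pathway genes, 40 lost their call, all in comparisons whose tests are not given above (for Acvr1, Acvr2a, Furin, Gdf11, Itgav and Tgfbr3), and none changed sign. Those calls are still part of the list counts above. Tgfbr3, the 1 other receptor higher in TNF over control, lost its call with upper-quartile scaling (edgeR adjusted p = 0.0924). Furin, the 1 gene of the latency list higher after Fbxl2 siRNA, lost it without letter A (0.0520) or C (0.200). In TNF over control with upper-quartile scaling, Skil (0.125) and Fkbp1a (0.114) lost calls and Smad6 gained one (0.0223). Each of the 84 ratio, sum and share means with a library left out stayed within the SD of its group. With 3 libraries any values would do so, so nothing is concluded from it. Depth limits Mstn and Acvr2b.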
